A study of Mus musculus with 5 samples.

Results

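Glucocorticoid response genes and the metallothioneins were followed through 5 mouse co-cultures that all contained dexamethasone, a synthetic glucocorticoid. The set holds 9 genes, taken by symbol from the platform annotation: Nr3c1, Fkbp5, Tsc22d3, Sgk1, Per1, Dusp1, Cebpd, Mt1 and Mt2. Each gene was read by 1 probe set, so the set makes up 9 of the 12488 probe sets on the array and 9 of the 8251 genes with a single symbol. The rule that defines the set uses no measured value, but its members were chosen with earlier results of these data known. Because no culture lacked the hormone, the arrays hold no measurement of induction by dexamethasone, and every comparison below is between cultures that received it.

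The study asked how the Fos gene bears on the formation of osteoclasts, the cells that resorb bone. Haematopoietic cells shared a dish with the stromal line ST2-T for 6 days, in medium holding the active form of vitamin D as well as the hormone. The whole dish was taken for total RNA, so each value mixes haematopoietic and stromal transcripts. The groups were Fos-/- splenocytes infected with a deltaNFAT virus, Fos-/- splenocytes infected with a GFP virus (green fluorescent protein, the viral control), Fos-/- splenocytes without virus, Fos+/+ bone marrow cells and Fos+/+ splenocytes. The Fos genotype is that of the haematopoietic cells, since the labels give none for the stromal line. What deltaNFAT encodes, the dose of either virus and the age and strain of the mice are not in the labels. Each group had 1 array, which means that there is no replicate error, that no test was possible, and that every ratio compares 2 arrays. In such mixed samples fewer cells of a type and less RNA per cell cannot be told apart.

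Glucocorticoids enter the cell and bind a receptor, the product of Nr3c1, that is held ready by heat shock protein 90 and its co-chaperones. The receptor with its hormone moves to the nucleus, binds response elements in DNA and switches on genes that restrain its own signal (Fkbp5), dampen inflammatory signalling (Tsc22d3, Dusp1), act on ion transport and survival (Sgk1), reset the clock (Per1) or regulate other genes (Cebpd). Metallothioneins bind zinc and copper through cysteines and are induced by metals, through the factor MTF1, and by glucocorticoids. In bone cultures dexamethasone and vitamin D act largely on the stromal cells, which then support osteoclast formation.

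Some facts of the arrays bear on all values. Values were scaled to an equal trimmed mean, and intensities under a floor of 19.8, the 40th percentile of all values, were set to it before ratios were taken. A gene was counted as past 2-fold when the ratio reached 2 and the brighter array reached 39.6, which is 2 times the floor. The brighter of 2 Fos probe sets read 581 with deltaNFAT, 607 with GFP, 426 in Fos-/- spleen without virus, 614 in Fos+/+ bone marrow and 849 in Fos+/+ spleen. Because the dish includes stromal cells for which the labels give no Fos deletion, these values do not check the labels. The summed intensities of cell type markers differed between dishes. The summed intensity of 11 osteoclast markers was 2003 to 4173 in the 3 Fos-/- arrays and 12416 to 16760 in the 2 Fos+/+ arrays. That of 12 stromal markers was 12890 to 13303 and 11218 to 11277, with Thy1 and Alpl under the floor throughout, and that of 9 macrophage markers 7928 to 8968 and 6381 to 7761. Neutrophil markers ranged from 1388 in Fos+/+ spleen to 9819 in Fos+/+ bone marrow, and of 8 lymphoid markers Cd3e, Cd3g and Cd8a were under the floor in all arrays.

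Few of the 9 genes passed 2-fold in any comparison. Nr3c1 was too dim for a call in Fos-/- over Fos+/+ spleen, bone marrow over spleen and GFP virus over no virus. There 8 of the 9 were bright enough. In Fos-/- over Fos+/+ spleen 0 of 9 passed 2-fold, where 6.40% of the 4999 genes bright enough were higher and 6.52% lower (12.9% in either direction). With deltaNFAT over GFP virus 1 of 9 was higher, Mt2, and 0 were lower, against 3.52% of genes higher and 2.66% lower (6.18% together). In Fos+/+ bone marrow over Fos+/+ spleen the count was 0 of 9, against 13.1% of genes higher and 7.18% lower (20.3% together). With GFP virus over no virus 1 of 9 was lower, again Mt2, and 0 were higher, against 358 of 5114 genes lower and 10.3% higher (17.3% together). With deltaNFAT virus over no virus 1 of 9 was higher, the dim Nr3c1, and 0 were lower, against 11.0% of genes higher and 6.66% lower (17.7% together). Shares of 0 or 1 in 9 are too coarse to set the genes apart from these backgrounds. The median log2 ratio of the 9 genes was -0.10, 0.22, -0.08, -0.07 and 0.04 in the same 5 comparisons, beside 0.00, 0.00, 0.05, -0.05 and -0.03 over all measured genes. The comparisons share arrays and are not independent of each other.

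**Figure D1:**
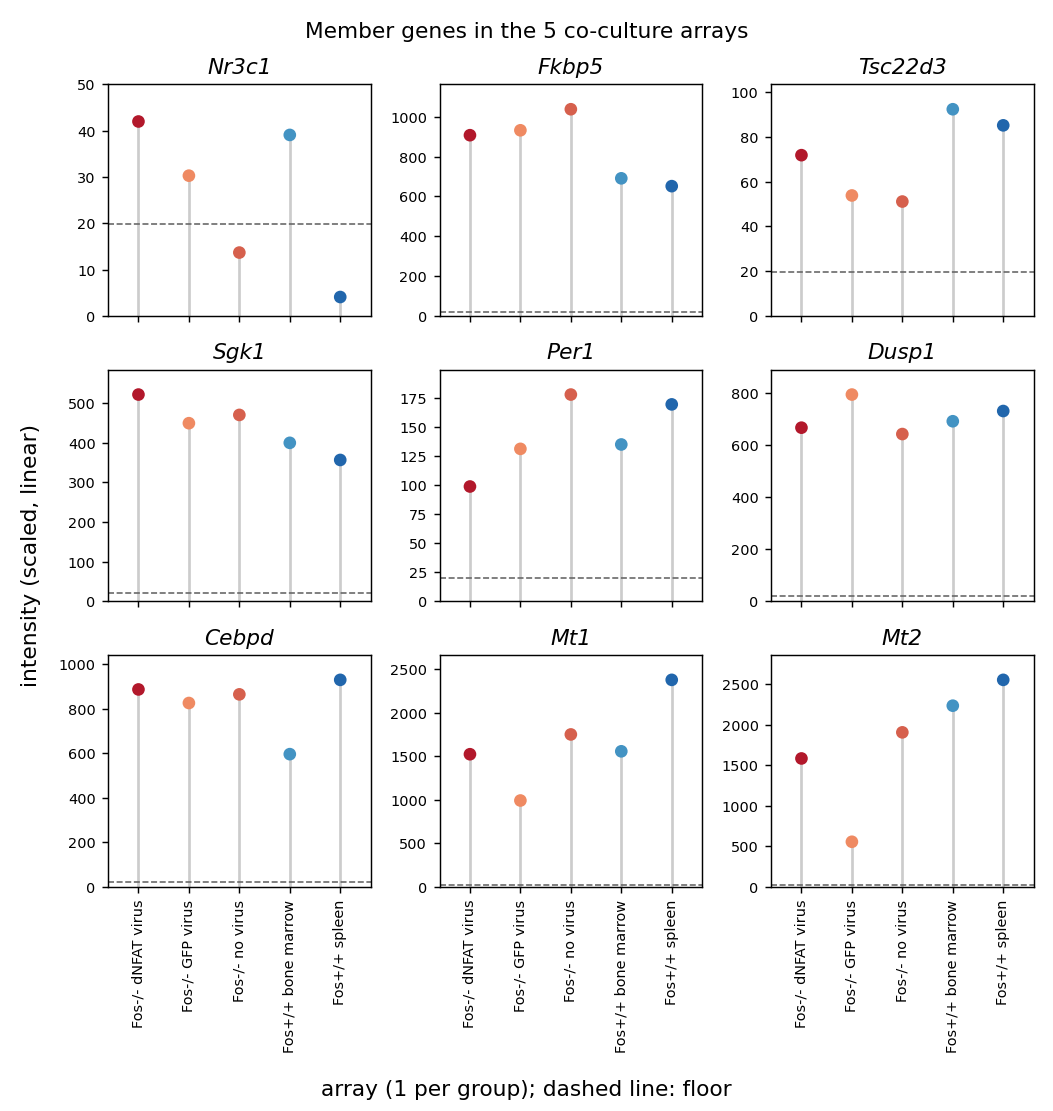
Scaled intensity of each of the 9 genes (linear vertical axis from 0, its own scale in each panel) in the 5 arrays, 1 point per array, with the floor of 19.8 as a dashed line. Mt2 and Mt1 are lowest in the array with GFP virus, Fkbp5 and Sgk1 are higher in all 3 Fos-/- arrays than in both Fos+/+ arrays, and Nr3c1 lies near the floor.

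The receptor gene itself was hardly measured. Nr3c1 read 42.0 with deltaNFAT, 30.3 with GFP, 13.7 in Fos-/- spleen without virus, 39.1 in Fos+/+ bone marrow and 4.10 in Fos+/+ spleen. It was above the floor in 3 of 5 arrays and reached 39.6 in 1. With deltaNFAT virus it was at least 2.12-fold higher than without virus, a ratio that 9.87% of genes reached or exceeded and that ended at higher floors (log2 ratio 0.14 at the 50th percentile, 38.2, and 0 at the 60th, 65.1). The lowest 1% of values on these arrays lay below -77.6 or lower, which is farther from 0 than any Nr3c1 value. The receptor transcript was thus not measured above the noise of these arrays, and no order of the arrays is read from it.

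Fkbp5 encodes a co-chaperone of the receptor that lowers its affinity for hormone and is among the most widely used readouts of glucocorticoid action. Its intensity was 907 with deltaNFAT, 931 with GFP and 1037 without virus in the Fos-/- cultures, and 691 in Fos+/+ bone marrow and 651 in Fos+/+ spleen. All 3 Fos-/- arrays thus lay above both Fos+/+ arrays, with a gap between 907 and 691. The ratio of Fos-/- to Fos+/+ spleen was 1.59-fold (log2 0.67), short of 2-fold, and 12.8% of genes reached at least that ratio upward. Within each genotype the values were close, with 1.11-fold between no virus and GFP, 1.03-fold between GFP and deltaNFAT and 1.06-fold between bone marrow and spleen.

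Sgk1, the serum- and glucocorticoid-regulated kinase, had the same order by genotype with a smaller step. It read 521 with deltaNFAT, 449 with GFP and 469 without virus, and 399 in Fos+/+ bone marrow and 356 in Fos+/+ spleen. The 3 Fos-/- values lay above both Fos+/+ values, but the step between genotypes, 449 against 399, was close to the step within Fos+/+, 399 against 356. The ratio of Fos-/- to Fos+/+ spleen was 1.32-fold, which 22.9% of genes reached or exceeded.

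Sgk1 is also the only one of the 7 members searched with the receptor's full palindromic element in a promoter window. The receptor binds as a pair to AGAACA half-sites that face each other across a spacer of 3 bases. RefSeq promoter windows (build GRCm38.p6, 250 bases before to 50 after an annotated start) were used for 7 of the 9 genes. Nr3c1 and Cebpd were not searched. The search of members left out 1 chromosome, so any member window there was not read. The palindrome was present in 1 of the 6 Sgk1 windows, that of the 5th start, and in 3 of 32851 windows of all genes (0.00913%). The stretch is shown because it carries that element. It covers chr10:21993640-21993739, plus strand, the first 100 bases of the window, with palindrome and half-site matches in capitals.
Sgk1: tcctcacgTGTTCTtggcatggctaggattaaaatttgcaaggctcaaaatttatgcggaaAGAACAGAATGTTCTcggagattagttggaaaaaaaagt
The palindrome runs from -189 to -175, and a further half-site on the other strand from -242 to -237 overlaps an E-box, CACGTG. Single half-sites, AGAACA on either strand, were in 19.0% of all windows and, besides this one, in 2 more Sgk1 windows and 1 of 3 Tsc22d3 windows. Neither the palindrome nor a half-site was found in the windows of Fkbp5, Per1, Dusp1, Mt1 or Mt2, which says only that these letters are not in those 300 bases. Which of its starts each gene used in these cultures is not known from the arrays.

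**Figure D2:**
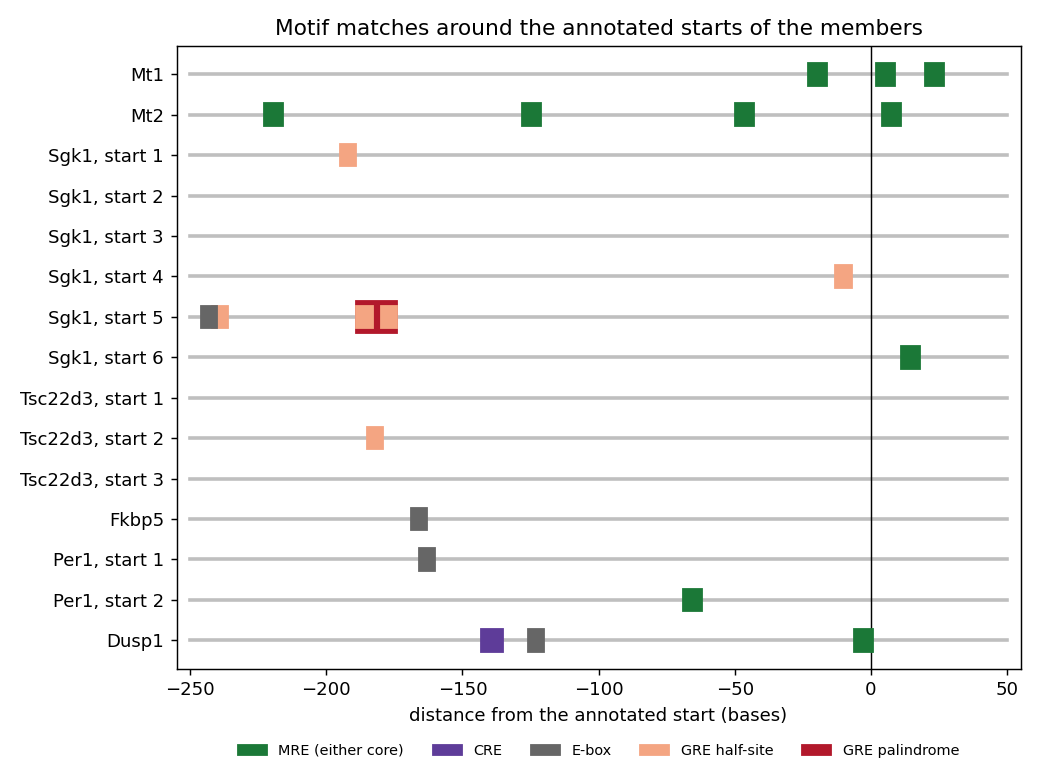
Motif matches in the RefSeq promoter windows of 7 members, by distance from the annotated start in bases (vertical line), both strands, 1 row per start. MRE cores are TGCGCNC and TGCACNC, the GRE half-site is AGAACA and the GRE palindrome a pair of these facing each other, the CRE TGACGTCA and the E-box CACGTG; Mt2 has 4 and Mt1 3 MRE matches, and the palindrome lies only in the window of the 5th Sgk1 start.

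Tsc22d3, which encodes the glucocorticoid-induced leucine zipper, an inhibitor of inflammatory transcription factors, ran the opposite way to Fkbp5 by genotype. It read 71.8 with deltaNFAT, 53.8 with GFP and 51.1 without virus, and 92.3 in Fos+/+ bone marrow and 85.1 in Fos+/+ spleen. The 3 Fos-/- arrays were all lower than the 2 Fos+/+ arrays. The ratio of Fos-/- to Fos+/+ spleen was 1.67-fold lower (log2 -0.74), which 501 of 4999 genes reached or exceeded downward. These intensities are dim. At a noise floor of 90.7 the log2 ratio was 0 because both spleen arrays then lie under the floor.

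Per1, a repressor of the circadian clock that glucocorticoids induce directly, did not separate by genotype. Its intensity was 98.9 with deltaNFAT, 131 with GFP and 178 without virus in the Fos-/- cultures, and 135 in Fos+/+ bone marrow and 169.6 in Fos+/+ spleen. The uninfected spleen arrays of both genotypes were the highest pair, 1.05-fold apart, and the deltaNFAT array was 1.80-fold below Fos-/- spleen without virus, a drop that 9.44% of genes reached or exceeded. With GFP the difference from no virus was 1.36-fold, and uninfected Fos+/+ bone marrow, at 135, was close to the GFP array. An E-box, the element bound by the clock activators, was in the window of 1 of the 2 Per1 starts, as in 7.15% of all windows. It was not particular to Per1, since the windows of Fkbp5, Dusp1 and the 5th Sgk1 start held 1 each.

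Dusp1 had the narrowest spread of the 9 genes over the arrays. Dusp1, a phosphatase that inactivates MAP kinases, read 667 with deltaNFAT, 795 with GFP and 643 without virus, and 692 in Fos+/+ bone marrow and 731 in Fos+/+ spleen. Its highest array was 1.24-fold over its lowest, and 94.7% of the 4402 genes that reached 4 times the floor in some array had a wider spread. Its window holds a CRE, TGACGTCA, the element of cyclic AMP signalling, which 1.79% of windows hold. Cebpd, a transcription factor of the acute phase response, read 887 with deltaNFAT, 826 with GFP and 865 without virus, and 596 in Fos+/+ bone marrow and 930.2 in Fos+/+ spleen. The 4 spleen arrays lay between 826 and 930.2 and the bone marrow array below them, 1.56-fold under Fos+/+ spleen, a ratio that 14.1% of genes reached or exceeded downward. Its highest array was 1.56-fold over its lowest, and 68.7% of genes had a wider spread, beside 76.8% for Sgk1 and 65.9% for Fkbp5.

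The metallothioneins carried the largest differences of the set. Mt2 read 1584 with deltaNFAT, 554 with GFP and 1907 without virus in the Fos-/- cultures, and 2237 in Fos+/+ bone marrow and 2556 in Fos+/+ spleen. The GFP array stood apart from the other 4. It was 3.44-fold lower than Fos-/- spleen without virus, and 67 of 5114 genes (1.31%) were at least as much lower there. DeltaNFAT was 2.86-fold higher than GFP, as 69 of 5033 genes (1.37%) were or more so, whereas against no virus deltaNFAT was 1.20-fold lower. The ratio of deltaNFAT to GFP thus rests on the GFP array. In all, 35 of 5564 genes (0.629%) had their GFP value at least 2-fold under each of the other 4 arrays, and for 16 of them, Mt2 included, the gap was as large as for Mt2; this count was chosen after the values were seen. The calls for Mt2 held under the other scalings. Its log2 ratios ran from -1.86 to -1.78 for GFP over no virus and from 1.51 to 1.54 for deltaNFAT over GFP. The other floors, brightness rule and probe set rules leave these ratios unchanged by construction, since Mt2 has 1 probe set that is bright in all arrays.

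Mt1 had the same lowest array at a smaller distance. It read 1522 with deltaNFAT, 989.9 with GFP and 1749 without virus, and 1555 in Fos+/+ bone marrow and 2377 in Fos+/+ spleen. GFP was 1.77-fold lower than no virus and deltaNFAT 1.54-fold higher than GFP, so neither passed 2-fold. Without virus, Fos-/- spleen was below Fos+/+ spleen for both genes, 1.36-fold for Mt1 and 1.34-fold for Mt2, ratios that 17.8% and 18.8% of genes reached or exceeded downward. In bone marrow over Fos+/+ spleen they differed from each other, with Mt1 1.53-fold and Mt2 1.14-fold lower. Beside the low GFP values, the summed intensity of the stromal markers was 13303 with GFP, 12890 with deltaNFAT and 13206 without virus, and that of the neutrophil markers 6996, 4766 and 3220. The part of cell makeup or of a single array's noise in the Mt2 value was not tested.

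**Figure D3:**
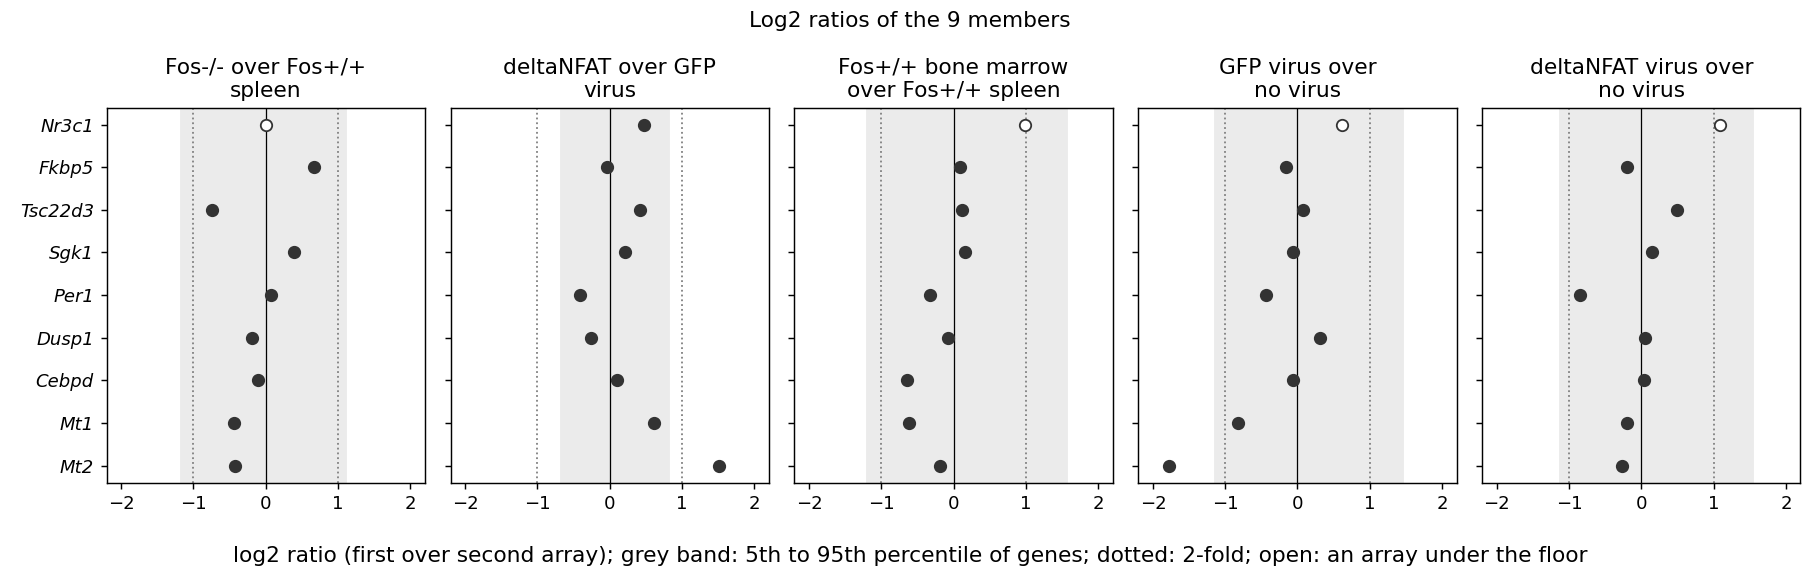
Log2 ratios of the 9 genes in the 5 comparisons, first array over second, with the 5th to 95th percentile of all genes bright enough as a grey band and 2-fold as dotted lines; open points have at least 1 array under the floor. Mt2 is the member outside the band, at 1.51 for deltaNFAT over GFP virus and -1.78 for GFP virus over no virus.

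The 2 genes lie side by side in the genome, on the same strand. Their promoters are shown because both hold matches to the core of the metal response element, through which MTF1 acts. The cores searched were TGCGCNC and TGCACNC, on both strands. The Mt1 stretch is chr8:94179039-94179118, plus strand, from -50 to 30, and the Mt2 stretch is chr8:94172388-94172647, plus strand, from -230 to 30, both from RefSeq in build GRCm38.p6, with matches to either core in capitals.
Mt1: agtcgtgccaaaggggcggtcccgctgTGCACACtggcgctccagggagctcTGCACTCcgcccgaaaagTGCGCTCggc
Mt2: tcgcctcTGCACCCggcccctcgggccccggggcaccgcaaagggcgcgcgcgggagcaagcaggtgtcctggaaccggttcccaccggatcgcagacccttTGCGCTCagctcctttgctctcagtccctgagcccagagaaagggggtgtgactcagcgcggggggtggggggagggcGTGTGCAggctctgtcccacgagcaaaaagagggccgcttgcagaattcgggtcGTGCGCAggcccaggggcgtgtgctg
Mt1 held 3 matches and Mt2 4 in their windows of 300 bases, and 1.97% of all windows held 3 or more, while 25.7% held at least 1. The 2 Mt2 matches written GTGTGCA and GTGCGCA are on the other strand. The Mt1 matches at 3 to 9 and 21 to 27 and the Mt2 match at 5 to 11 lie after the annotated start. Per1, Dusp1 and Sgk1 had 1 match each, in 1 window. A match is a description of the letters and not evidence that the factor was bound.

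Genes with the pattern of the metallothioneins were sought by the correlation of log2 intensity over the 5 arrays, among 1781 genes above the floor in all arrays and ranging over at least 2-fold. Closest to Mt1 were Erp29, a chaperone of the endoplasmic reticulum (r = 0.99), Abr (r = 0.99) and Nop16 (r = 0.99). Closest to Mt2 were Zfp358 (r = 0.99), Dtna (r = 0.99) and Gm8096 (r = 0.99). Zfp358 read 101 with deltaNFAT, 27.2 with GFP, 117 without virus, 123 in Fos+/+ bone marrow and 147 in Fos+/+ spleen, so it shares the low GFP array. Of the genes searched, 70 exceeded r = 0.9 for Mt1 (3.93%) and 57 for Mt2 (3.20%), over 5 arrays that share their scaling and floor. No other member met the rule for this search, which asked for a 2-fold range and an intensity of 79.2.

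Taken by genotype, 4 of the 9 members had 3 Fos-/- values that did not overlap the 2 Fos+/+ values. Fkbp5 and Sgk1 were higher and Tsc22d3 and Mt2 lower in the Fos-/- arrays, although for Mt2 the gap between 1907 and 2237 was small beside the spread within Fos-/-. Among 5564 genes of the array, 10.0% were higher and 15.1% lower in this sense. The 3 Fos-/- arrays differ in virus and the 2 Fos+/+ arrays in tissue, so they are not replicates, and the grouping was chosen after the values were seen. The osteoclast markers moved with this grouping as well, with 10 of 11 lower in the Fos-/- arrays and without overlap, and 4 of 9 stromal markers bright enough were higher. The part of cell makeup in the Fkbp5, Sgk1, Tsc22d3 and Mt2 values was not tested.

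Around the receptor, the largest difference was in Hsp90aa1, an isoform of the chaperone that holds the receptor in its hormone-binding state. It read 679 with deltaNFAT, 592 with GFP and 60.1 without virus in the Fos-/- cultures, and 798 in Fos+/+ bone marrow and 88.9 in Fos+/+ spleen. The virus and bone marrow arrays were high and both uninfected spleen arrays low, with GFP 9.85-fold and deltaNFAT 11.3-fold over no virus and bone marrow 8.97-fold over Fos+/+ spleen. A second Hsp90aa1 probe set was under the floor in all arrays and bears on none of this. The list of chaperones, hormone enzymes and coregulators had 15 measured genes. Measured, here and for the lists below, means above the floor in some array, so a measured gene can be too dim for a call. Of these 1 was higher and 0 lower in Fos-/- over Fos+/+ spleen, against 6.40% and 6.52% of all genes bright enough. With deltaNFAT over GFP the counts were 1 and 1, against 3.52% and 2.66%. In bone marrow over spleen they were 3 and 0, against 13.1% and 7.18%. In either virus over no virus they were 2 and 0. The shares there were 10.3% higher and 358 of 5114 genes lower with GFP, and 11.0% and 6.66% with deltaNFAT. These counts are too small to set the list apart from all genes. The median log2 ratios lay between 0.00 and 0.18, beside -0.05 to 0.05 over all measured genes. Fkbp4, the co-chaperone that competes with Fkbp5, read 337 in Fos-/- against 415 in Fos+/+ spleen, 1.23-fold lower, and its second probe set 269 against 289. Hsd11b1, the enzyme that regenerates active glucocorticoid, was dim and is named after its values were seen: 65.1 with deltaNFAT, 18.1 with GFP, 21.5 without virus, 55.3 in Fos+/+ bone marrow and 23.9 in Fos+/+ spleen.

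Other genes that glucocorticoids induce in various tissues gave 30 measured members of the list. In Fos-/- over Fos+/+ spleen 5 were higher and 1 lower, against 6.40% and 6.52% of all genes bright enough. The median log2 ratio of the list was 0.19, beside 0.00 over all measured genes. Zbtb16, a zinc finger repressor, read 165 against 63.4 and was 2.60-fold higher, Sult1a1 was 3.36-fold and the interleukin 6 receptor gene Il6ra 2.50-fold higher, and Tgfbr3 was at least 5.70-fold lower. A second Zbtb16 probe set was under the floor in all arrays. In bone marrow over Fos+/+ spleen 6 were higher and 0 lower (median 0.50 beside 0.05), against 13.1% and 7.18% of all genes. Among the 6 were Lcn2 (6.89-fold), which neutrophils also express, Il6ra (2.99-fold), Zbtb16 (2.09-fold) and the Krüppel-like factor Klf9, at 554 against 276. The second Lcn2 probe set read 84.3 against 69.9 in that comparison, short of 2-fold, and the second Klf9 probe set 111 against 24.0. With GFP over no virus 3 were higher and 1 lower, against 10.3% of all genes higher and 358 of 5114 lower. With deltaNFAT over no virus the counts were again 3 and 1, against 11.0% and 6.66%. Such counts do not set the list apart from all genes. Annexin A1, Anxa1, an anti-inflammatory phospholipid-binding protein, was 2.03-fold higher with GFP and 2.46-fold with deltaNFAT than without virus, and the stress gene Gadd45a 2.13-fold and 2.22-fold. For Anxa1 uninfected Fos+/+ bone marrow was as high, at 1659 beside 1608 with deltaNFAT and 1330 with GFP. The uninfected spleen arrays read 654 in Fos-/- and 992 in Fos+/+. With GFP over no virus the other Anxa1 probe sets read 917 against 496 and 335 against 222, both short of 2-fold. With deltaNFAT over GFP 1 was higher, the decoy receptor gene Il1r2 (3.48-fold), and 0 were lower, against 3.52% and 2.66% of all genes. The second Il1r2 probe set read 82.2 against 49.1 there, short of 2-fold.

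**Figure D4:**
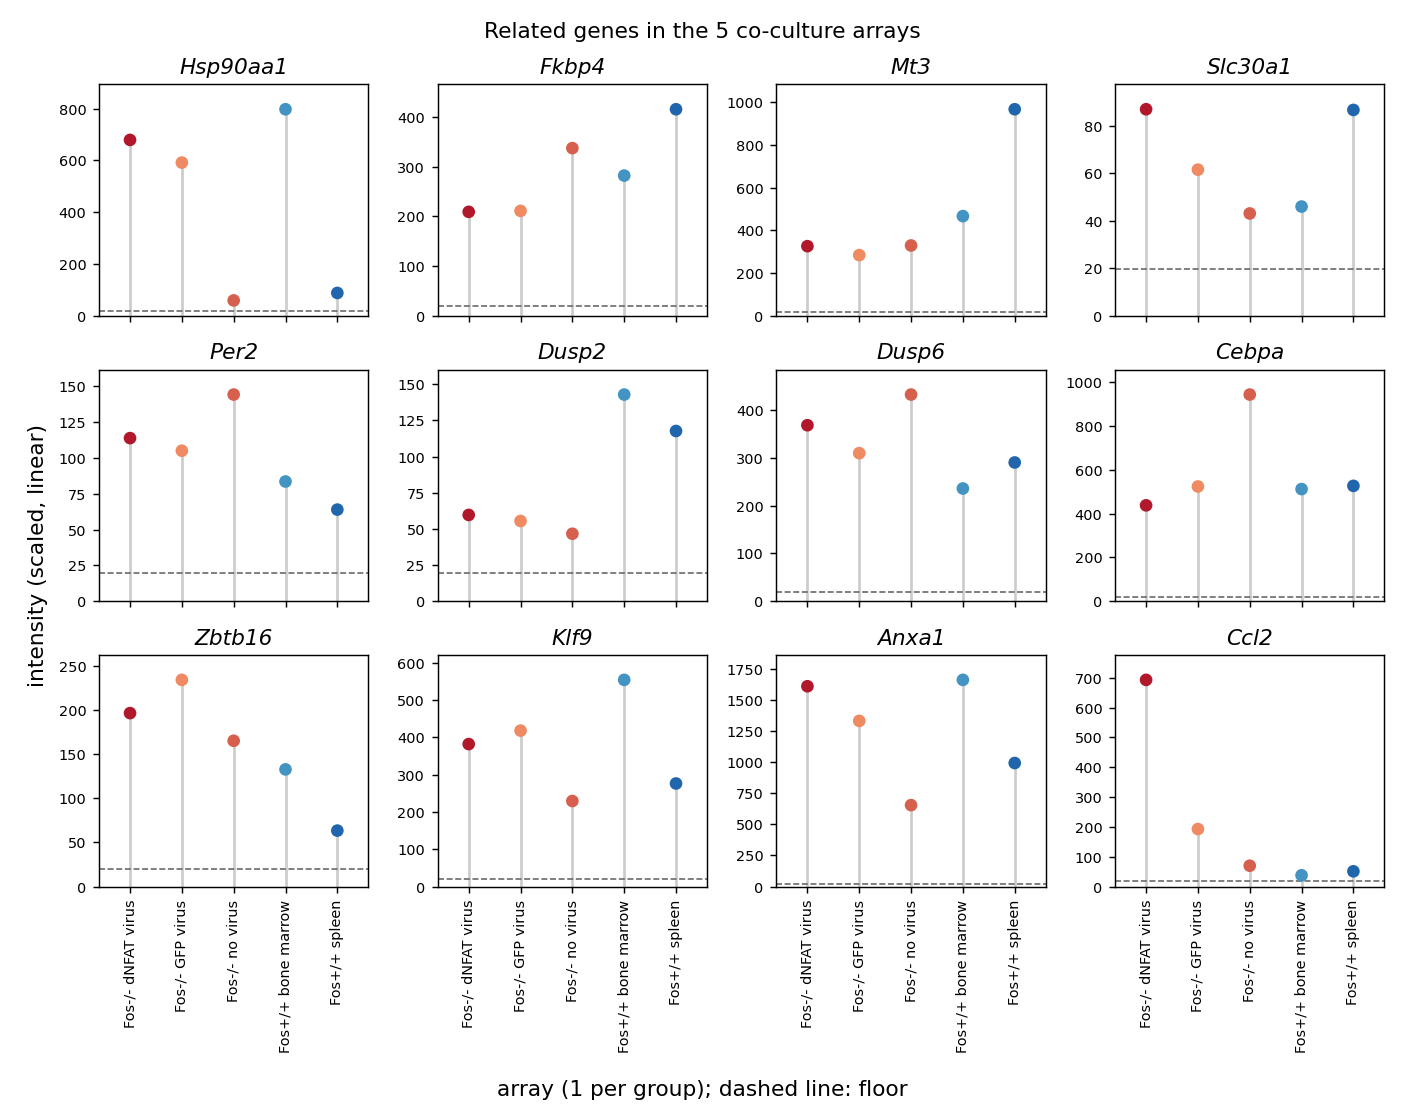
Scaled intensity (linear vertical axis from 0, its own scale in each panel) of 12 genes related to the members in the 5 arrays, 1 point per array, with the floor of 19.8 dashed. Hsp90aa1, Klf9 and Anxa1 are high in the virus and bone marrow arrays, Mt3 and Dusp2 are lower in the 3 Fos-/- arrays, Per2, Dusp6 and Zbtb16 are higher there, and Ccl2 is highest with deltaNFAT.

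Several inflammatory genes that glucocorticoids repress were higher with deltaNFAT. Of 24 on the array 13 were above the floor in some array, and Il6, Il1b, Tnf, Ptgs2 and Nos2 were under it in all 5. With deltaNFAT over GFP 5 of 13 (of 24 on the array) were higher and 0 lower, against 3.52% and 2.66% of all genes bright enough. The median log2 ratio of the 13 was 0.52, beside 0.00 over all measured genes. Ccl4 and Cxcl10 count among the 13 only through the deltaNFAT array, at 28.4 and 27.5. The median thus depends in part on the array compared, and no shift of the list is read from it. In the same comparison 7 of 11 osteoclast markers were higher and 0 lower, with summed intensities of 4173 against 2003, and their part in the inflammatory values was not tested. The collagenase Mmp13 read 2107 against 293 (7.19-fold), and the monocyte attractants Ccl2 and Ccl7 were 3.59-fold and 4.35-fold higher. In Fos-/- over Fos+/+ spleen 1 was higher, the adhesion molecule Vcam1 (2.52-fold), and 2 lower, among them Mmp9 (3.59-fold), which is an osteoclast marker too. Of all genes bright enough, 6.40% were higher there and 6.52% lower. The members Tsc22d3 and Dusp1, which oppose such genes, were 1.33-fold higher and 1.19-fold lower with deltaNFAT over GFP.

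Among the relatives of the metallothioneins, Mt3, best known from brain, read 326 with deltaNFAT, 285 with GFP and 330 without virus, and 467 in Fos+/+ bone marrow and 966 in Fos+/+ spleen. Against Fos+/+ spleen it was 2.93-fold lower in Fos-/- spleen without virus and 2.07-fold lower in bone marrow, and its GFP value was not set apart. Of the metal handling list of 18 measured genes 0 were higher and 3 lower in Fos-/- over Fos+/+ spleen, against 6.40% and 6.52% of all genes bright enough. With deltaNFAT over GFP 0 of 18 passed, against 6.18% in either direction. Slc30a1, a zinc exporter that MTF1 induces, read 86.9 with deltaNFAT, 61.5 with GFP, 43.1 without virus, 46.0 in Fos+/+ bone marrow and 86.6 in Fos+/+ spleen.

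Per2, a partner of Per1 in clock repression, read 144 in Fos-/- against 64.0 in Fos+/+ spleen, 2.25-fold higher, where Per1 was 1.05-fold higher and Per3 1.05-fold lower. Of 14 measured clock genes 3 were higher and 1 lower in that comparison, against 6.40% and 6.52% of all genes bright enough. In bone marrow over Fos+/+ spleen 4 were higher and 1 lower, against 13.1% and 7.18%. Tef, an output gene of the clock, was 4.94-fold and 2.59-fold higher in these comparisons, and the repressor Bhlhe40 3.52-fold and 2.11-fold lower. Clock was dim, at 101 with GFP against 23.1 without virus, and 64.3 in Fos+/+ bone marrow and 7.70 in Fos+/+ spleen. Among phosphatases related to Dusp1, 1 of 7 passed 2-fold in any of the comparisons: Dusp2 read 46.7 in Fos-/- against 117.7 in Fos+/+ spleen, 2.52-fold lower, and Dusp6 was 1.49-fold higher. Of all genes bright enough, 6.52% were lower in Fos-/- over Fos+/+ spleen. Among the relatives of Cebpd, Cebpb ranged from 717 in bone marrow to 1119 in Fos-/- spleen without virus. Cebpa was 2.15-fold lower with deltaNFAT and 1.80-fold lower with GFP than without virus, at 437 and 523 against 942. Uninfected Fos+/+ bone marrow and spleen read 511 and 526, near the virus arrays, so the uninfected Fos-/- spleen array stood apart. The stress factor Ddit3, named after its values were seen, was dim, at 58.2 with deltaNFAT and 75.0 with GFP against 23.3 without virus. It read 48.6 in Fos+/+ bone marrow and 28.3 in Fos+/+ spleen.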

How the data were processed

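For 5 arrays the authors deposited linear intensity values, 1 for each probe set. The software that made them is not stated in the labels or headers. As deposited, 20.3 to 22.4% of an array's values were at or below 0, and the trimmed means were 99.99 to 100.0. All columns matched a sample. Each array was scaled to an equal mean without the lowest and highest 2%, and values under the 40th percentile of all values (19.8) were set to it before log2. Of the probe sets, 10855 carried 1 symbol, 396 several and 1237 none. RefSeq's table (GRCm38.p6) matched 10817 named probe sets that are not controls by gene identifier and changed 0 symbols. The brightest probe set stood for a gene. With 1 array per group there was no test, and the number of arrays limits precision. Calls were tested on simulated data. Members and lists were chosen with earlier results of these data known. Genes beyond the members were named as the up to 4 largest log2 ratios per list and comparison among genes reaching 79.2, plus relatives of members. Alternatives were other scalings, floors and probe set rules. Python 3.11.15, numpy 2.4.6 and pandas 2.3.3 were used.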

Additional observations from a re-analysis of the deposited data

How the results depend on the processing

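Of 405 member ratios recomputed under 9 alternatives, 400 kept their call or lack of one, and the other 5 were all of Nr3c1, because its values lie near the floor. At the 30th percentile floor (7.40) the count of members past 2-fold was 1 in bone marrow over Fos+/+ spleen and 2 with GFP over no virus. With deltaNFAT over no virus it was 0 at the 50th and 60th percentile floors and 0 at a noise floor of 90.7 added after seeing the data. The brightness rule without its factor gives the same calls by construction. For the members the probe set rules do so too, since each has 1 probe set with no letter suffix. The other floors could move only Nr3c1 and Tsc22d3, because the remaining members exceed every floor in all arrays. Most of the 400 unchanged calls were thus fixed in advance. Counts over all genes moved with the floor: 184 to 1014 beside 646 in Fos-/- over Fos+/+ spleen, 35 to 632 beside 311 with deltaNFAT over GFP, 276 to 1578 beside 1074 in bone marrow over Fos+/+ spleen, 235 to 1337 beside 887 with GFP over no virus, and 268 to 1361 beside 914 with deltaNFAT over no virus. For bone marrow over spleen, quantile normalization gave 523 higher and 497 lower genes, against 694 and 380, and its median log2 ratio over all genes was -0.04 against 0.06. Under it the log2 ratio of Dusp1 was 0.01 against -0.08 and that of Tsc22d3 -0.04 against 0.12, so both changed sign without passing 2-fold. The genotype grouping kept its 4 members except at the noise floor, where 3 remained, without Tsc22d3. No paired analysis was possible because each group has 1 array. Arrays give no depth, and dim probe sets limit what can be read.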

Other observations

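Genes of the oxidative stress response share metal and redox signals with the metallothioneins. Their median log2 ratio with GFP over no virus was 0.00, beside -0.05 over all measured genes, so their median did not share the low GFP value of Mt2. In that comparison 0 of 18 measured genes were higher and 1 lower, against 10.3% of all genes higher and 358 of 5114 lower. These counts are too small to set the list apart from all genes. The lower gene was glutathione reductase, Gsr, at 167 against 382 (2.29-fold). With deltaNFAT over no virus 0 were higher and 2 lower, against 11.0% and 6.66% of all genes bright enough. The median log2 ratio of the list there was -0.34 beside -0.03 over all measured genes, and the extracellular glutathione peroxidase Gpx3 was 2.80-fold lower. Haem oxygenase, Hmox1, which like the metallothioneins responds to metals, read 2012 with deltaNFAT, 2457 with GFP and 2367 without virus, and 2441 in Fos+/+ bone marrow and 1695 in Fos+/+ spleen. Catalase, Cat, read 271 in Fos-/- against 139.9 in Fos+/+ spleen without virus, 1.94-fold higher, but its second probe set read 135 against 123.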
